A study of Mus musculus with 12 samples.

Results

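Genes for the enzymes that place and remove methyl groups on histone lysines were followed in the prefrontal cortex (PFC) of mice after repeated cocaine. They were taken by name, as the entries whose symbols begin with Kdm1 to Kdm8, Kmt2, Mll1 to Mll5, Setd, Ehmt, Ezh1, Ezh2, Suv, Nsd1 or Whsc1, leaving out Kdm5c, Kdm5d and Kdm6a. Of the 39929 named entries in any of the 3 tables, there were 42 that fitted, with 41 of them in the 2 h table, 41 in the 24 h table and 42 in the 7 d table. The rule uses names only. Adult male C57BL/6 mice (C57BL/6 J in the methods), 10 weeks old, had received saline or cocaine at 20 mg/kg per day by intraperitoneal injection for 14 days, and tissue was taken 2 h, 24 h or 7 d past the final dose. The 6 groups (saline and cocaine at each time) had 2 libraries each, and a library pooled the bilateral PFC of 5 mice, so that 60 mice gave 12 libraries. Cells of different types were not separated. Each time point had its own saline group.

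Methylation of histone lysines marks chromatin by position. Methylated lysine 4 of histone H3 (H3K4) lies at promoters and enhancers in use, H3K36 along transcribed genes, H3K9 and H3K27 in silenced chromatin, and H4K20 in compacted chromatin and at replication. Methyltransferases with a SET domain write these marks, and demethylases of the amine oxidase type (Kdm1a, Kdm1b) or the Jumonji type (the other Kdm genes) erase them. In neurons these enzymes are known for their part in activity-dependent transcription, and mutations in many of them cause intellectual disability.

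Each value given here is an FPKM (fragments scaled by transcript length and by the number of mapped fragments), 1 for each group, pooled over its libraries before deposit. No value per library was used, so no group has an error, no comparison has a test, and the differences below cannot be set against the spread between replicates. The read depth behind a value is not known from the tables. A gene was counted as higher or lower in cocaine when the ratio of the pooled FPKM reached 5 to 4 in either direction (0.32 on the log2 scale, called the fold limit here), and the same count over all genes is given as a background. Only loci with the status OK, a mean FPKM of at least 1 and both values above 0 were counted, which left 35, 37 and 37 genes at 2 h, 24 h and 7 d. Kmt2d and Kdm6bos had another status in every table, Kdm6b at 2 h and Kdm2b at 7 d. Ezh2 and Kdm4d were under the minimum at each time, and Kdm8 at 2 h. Setdb2 stood alone in the 7 d table only. Setd1a, which the files list only in a joint entry with a neighbour, is not included.

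The tissue carried neuronal RNA. Neuron markers (Snap25, Rbfox3 and Syt1) summed to 1831 to 1980 FPKM in the 6 groups and inhibitory markers (Gad1, Gad2 and Slc32a1) to 111 to 122 FPKM. In the list of striatal neuron markers Adora2a and Rgs9 reached a mean of 1, and its sum was 3.51 to 4.31 FPKM. Astrocyte markers (Gfap, Aqp4 and Aldh1l1) summed to 85 FPKM in saline and 91.1 FPKM in cocaine at 2 h, 102 and 86.3 FPKM at 24 h, and 82.6 and 95.1 FPKM at 7 d. Choroid plexus markers, of which Ttr and Kcnj13 reached a mean of 1, summed to 4.17 FPKM in saline and 3.23 FPKM in cocaine at 2 h. Their sums were 4.87 and 4.29 FPKM at 24 h, and 3.36 and 9.53 FPKM at 7 d. The part of these cell types in the values below was not tested. In such bulk tissue a smaller share of one cell type and less RNA per cell cannot be told apart.

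Sequences are shown for the start sites of genes that were higher in cocaine at 2 h and for the qRT-PCR oligonucleotides of Kdm6b. Of the 5 genes that were higher in cocaine at 2 h (below), 3 had a promoter in the RefSeq table of GRCm38.p6. The 250 bases before the first start site are given 5′ to 3′ on the gene's strand, with each GC box (GGGCGG or its reverse complement, the letters that Sp1-type factors are known to bind) in capitals. They are Kdm5b at chr1:134559928-134560177 (plus strand), Kdm7a at chr6:39206774-39207023 (minus strand) and Setd8, named Kmt5a in RefSeq, at chr5:124439680-124439929 (plus strand).
Kdm5b: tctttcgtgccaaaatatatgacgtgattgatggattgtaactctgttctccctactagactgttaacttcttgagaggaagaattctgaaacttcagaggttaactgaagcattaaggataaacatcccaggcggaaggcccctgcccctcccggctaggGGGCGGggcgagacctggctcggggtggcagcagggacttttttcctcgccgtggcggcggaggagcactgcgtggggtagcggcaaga
Kdm7a: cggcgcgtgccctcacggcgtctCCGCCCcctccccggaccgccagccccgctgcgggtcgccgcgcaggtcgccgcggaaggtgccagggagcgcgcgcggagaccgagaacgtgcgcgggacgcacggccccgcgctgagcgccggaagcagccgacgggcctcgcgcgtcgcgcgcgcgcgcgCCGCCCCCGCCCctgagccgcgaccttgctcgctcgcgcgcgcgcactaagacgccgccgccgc
Setd8: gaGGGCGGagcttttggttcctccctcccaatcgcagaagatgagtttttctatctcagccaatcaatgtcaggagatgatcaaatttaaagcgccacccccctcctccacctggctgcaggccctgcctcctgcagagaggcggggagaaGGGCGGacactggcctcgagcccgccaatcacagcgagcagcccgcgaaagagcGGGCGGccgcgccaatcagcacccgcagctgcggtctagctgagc

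These 3 windows differed in composition. Kdm7a held 56 CpG dinucleotides, a number reached by 0.00609% of the 32851 promoters in the table, against 13 in Kdm5b and 16 in Setd8. Kdm7a and Setd8 had 3 GC boxes each and Kdm5b had 1. The half-site of the cAMP response element (TGACG on either strand, also counted inside the full element TGACGTCA) was present once in Kdm5b and not in the other 2 windows. One match to the EGR site (GCGGGGGCG on either strand) was found in Kdm7a. Setd8 also has later start sites, with windows at chr5:124445249-124445498 and chr5:124446454-124446703. These held 39 and 7 CpG and 3 and 1 GC boxes. Over 42 promoters of 30 of the histone lysine methylation genes, 66.7% held a GC box, 21.4% the half-site, 2.38% the full element and 4.76% the EGR site. Over 11590 promoters of other genes that reached the level minimum at 2 h the shares were 57.4%, 26.3%, 2.51% and 4.97%, and over all promoters 32.7%, 17.8%, 1.55% and 2.57%. The median number of CpG was 22 in the histone lysine methylation genes and 15 in the other genes at that level. Such matches describe letters and do not show binding.

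For Kdm6b, the demethylase of H3K27, the study's qRT-PCR oligonucleotides lie inside the coding sequence. The forward primer matched positions 3863 to 3883 and the reverse primer positions 4066 to 4084 of a transcript of 6654 bases whose coding sequence runs from 411 to 5336, giving a product of 222 bases.
Kdm6b forward: gaaattccgagagtcctacct
Kdm6b reverse: cctaagttgagccgaagtg

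At 2 h, 5 of the 35 genes were higher in cocaine and 0 were lower, where 7.2% of 13147 genes were higher and 5.21% lower. The 5 were the H3K4 methyltransferase gene Setd1b, the H4K20 methyltransferase gene Setd8 and the demethylase genes Kdm7a, Kdm2a and Kdm5b. At 24 h 0 of 37 genes were higher and 1, Suv39h2, was lower, where 4.02% and 3.48% of 13351 genes were. At 7 d, 2 of 37 genes, Kdm5a and Kdm8, were higher and 0 were lower, where 5.31% and 7.8% of 13182 genes were. The median log2 ratio of the histone lysine methylation genes at 2 h was 0.12, against 0.024 over all genes. At 24 h it was 0.064 against 0.009, and at 7 d it was 0.098 against -0.011. Genes in the middle (interquartile) range of transcript length of these genes had medians of 0.057 (2 h), 0.02 (24 h) and 0.078 (7 d). The plot of ratios by enzyme class shows each gene at each time.

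**Figure D1:**
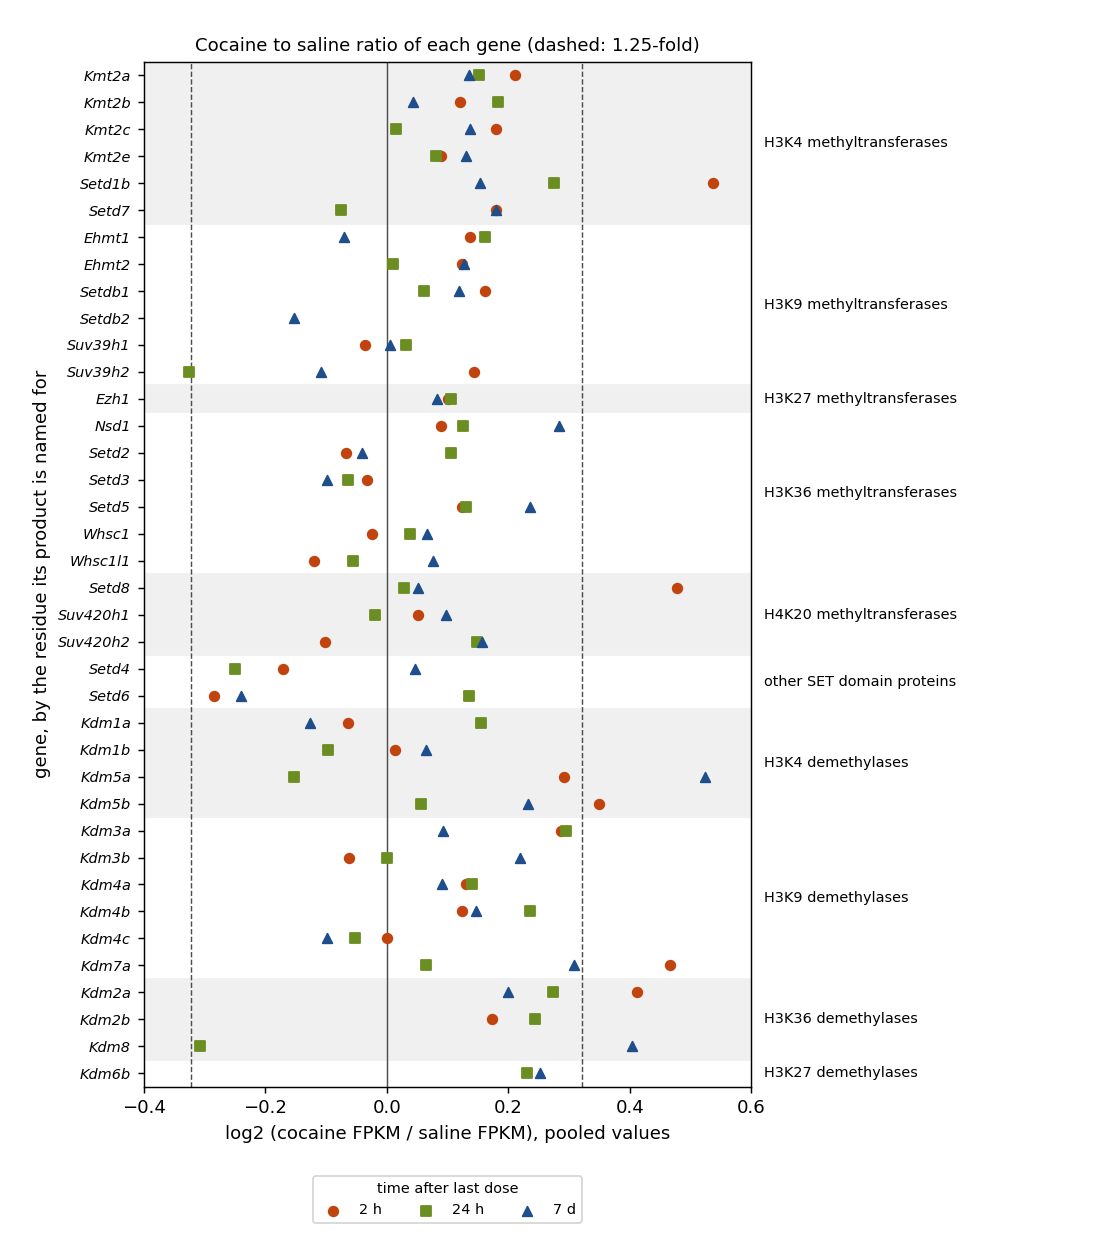
Log2 ratio of pooled cocaine FPKM to pooled saline FPKM (horizontal axis) for each gene that passed the level filter, in rows grouped by the histone residue, with circles for 2 h, squares for 24 h and triangles for 7 d. Dashed lines mark the fold limit; 5 circles and 2 triangles lie beyond the right line and 1 square beyond the left line.

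Among the writers of H3K4 methylation, all 6 genes that passed the filter at 2 h had higher pooled values in cocaine, with log2 ratios from 0.09 to 0.54. By any amount 56.6% of all genes were higher at 2 h, and 66.3% of genes in the middle range of transcript length of the histone lysine methylation genes. That range ran from 4202 to 7724 bases, while the median transcript of the 6 H3K4 writers was longer, at 8067 bases. Setd1b, the catalytic subunit of one COMPASS complex, had 2.45 FPKM in saline and 3.56 FPKM in cocaine at 2 h, 2.40 and 2.91 FPKM at 24 h, and 1.99 and 2.21 FPKM at 7 d. Cocaine was above its own saline group at each time, and the difference in log2 became smaller from one time to the next (0.54, 0.28 and 0.15). Of genes within 2-fold of its level, 3.33% had a ratio at least as high at 2 h. The locus that the authors' files give for Setd1b (chr5:123047373-123250131, GRCm38) spans 203 kb, against 26.6 kb for the gene in RefSeq, and holds 4 other protein-coding genes (Hpd, Psmd9, Rhof and Tmem120b).

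The MLL-type genes had smaller differences at 2 h. Kmt2a, the founding member of that family, had 4.07 FPKM in saline and 4.71 FPKM in cocaine at 2 h, 3.14 and 3.49 FPKM at 24 h, and 2.67 and 2.93 FPKM at 7 d. Its saline groups differed from each other by 1.53-fold, more than any cocaine to saline ratio of the gene. Kmt2b, Kmt2c and Kmt2e, of which the last is known to lack clear catalytic activity, were higher in cocaine at each time by log2 ratios between 0.016 and 0.18. Kmt2d, a writer of H3K4 monomethylation at enhancers, had the status FAIL throughout, so no ratio was taken, and its pooled values were 1.92 and 2.14 FPKM at 2 h, 1.81 and 1.98 FPKM at 24 h, and 1.32 and 2.09 FPKM at 7 d. Setd7, a monomethyltransferase of H3K4 and of other proteins, was the most abundant of the class, at 20.3 and 23.0 FPKM at 2 h, 21.8 and 20.7 FPKM at 24 h, and 19.4 and 22 FPKM at 7 d.

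Writers of H3K9 methylation were split. Ehmt2 (G9a), the main dimethyltransferase of H3K9, was the most abundant of them, with 47.6 FPKM in saline and 51.9 FPKM in cocaine at 2 h, 51.8 and 52.1 FPKM at 24 h, and 45.1 and 49.2 FPKM at 7 d. Ehmt1, its partner in the same complex, was lower in level, at 4.23 and 4.66 FPKM at 2 h, 4.70 and 5.25 FPKM at 24 h, and 4.20 and 4.01 FPKM at 7 d. Both genes of the pair were thus within the fold limit at each time. Suv39h2, which places H3K9 trimethylation in heterochromatin, was the only one of the 37 genes counted as lower at 24 h, with 1.38 FPKM in saline and 1.1 FPKM in cocaine. Its pooled values at 2 h were 1.28 and 1.41 FPKM and at 7 d 1.30 and 1.21 FPKM. At this low level 10.9% of genes of like level had a 24 h ratio at least as low, and adding 0.1 to each FPKM took the gene under the fold limit. Its locus (chr2:3424131-3475094) also spans Dclre1c. Suv39h1, its X-linked relative, stayed between 8.55 and 9.45 FPKM. Setdb1, which silences retroelements, was 4.20 and 4.69 FPKM at 2 h, and Setdb2 was 1.27 and 1.14 FPKM at 7 d.

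Of the writers of the H3K27 mark, 1 gene passed the level minimum. Ezh1, the catalytic subunit of PRC2 in non-dividing cells, had 13.2 FPKM in saline and 14.2 FPKM in cocaine at 2 h, 12.8 and 13.8 FPKM at 24 h, and 12.2 and 12.9 FPKM at 7 d. Its log2 ratios were 0.10, 0.11 and 0.083. Ezh2, the subunit of dividing cells, was at 0.635 to 0.993 FPKM over the 6 groups.

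The H3K36 class contained no gene past the fold limit at any time. Setd3, named for H3K36 and known as the methyltransferase of an actin histidine, was the most abundant gene of all, at 54.7 and 53.5 FPKM at 2 h, 55.6 and 53.2 FPKM at 24 h, and 54.6 and 51.0 FPKM at 7 d. It was also the only one of the 34 genes with a ratio at each time that was lower in cocaine at all 3. Nsd1, a dimethyltransferase of H3K36 mutated in Sotos syndrome, had 6.40 and 6.81 FPKM at 2 h, 5.63 and 6.14 FPKM at 24 h, and 4.83 and 5.88 FPKM at 7 d. Setd5, a chromatin regulator listed in the same class here, followed the same order, with log2 ratios of 0.12, 0.13 and 0.24. Setd2, the enzyme of H3K36 trimethylation, and Whsc1 and Whsc1l1, the relatives of Nsd1, stayed between -0.12 and 0.11.

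In the H4K20 class Setd8 stood apart at 2 h. This monomethyltransferase, whose locus is chr5:124439930-124462337, had 11.1 FPKM in saline and 15.5 FPKM in cocaine at 2 h, 12.2 and 12.4 FPKM at 24 h, and 10.7 and 11.1 FPKM at 7 d. The 2 h cocaine value lay above the other 5 values, which ranged from 10.7 to 12.4 FPKM. Among genes of like level 2.11% had a ratio at least as high at 2 h, the smallest such share of the 5 genes. The log2 ratio was 0.48 at 2 h and 0.029 and 0.051 later. Suv420h1 and Suv420h2, which add the second and the third methyl group, were within the fold limit at each time, and Suv420h2 was the lower of the pair, at 1.96 to 2.78 FPKM. Setd6, a methyltransferase of RelA, had the lowest log2 ratio of the 35 genes at 2 h (-0.28), from 7.34 FPKM in saline and 6.03 FPKM in cocaine. It had 6.82 and 7.5 FPKM at 24 h (0.14 in log2) and 7.8 and 6.61 FPKM at 7 d (-0.24). The locus of Setd6 also spans Cnot1, and was longer at 7 d (chr8:95715915-95821728) than at 2 h (chr8:95715915-95719010). Setd4 was at 1.27 and 1.13 FPKM at 2 h, 1.79 and 1.51 FPKM at 24 h, and 1.5 and 1.55 FPKM at 7 d.

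The erasers of H3K4 methylation are a Jumonji pair, Kdm5a and Kdm5b, and an amine oxidase pair, Kdm1a and Kdm1b. Kdm5b, a demethylase of trimethylated H3K4, had 6.62 FPKM in saline and 8.44 FPKM in cocaine at 2 h, 6.77 and 7.04 FPKM at 24 h, and 5.37 and 6.30 FPKM at 7 d. Its cocaine value was above the saline value at each time, by log2 ratios of 0.35, 0.056 and 0.23. The saline groups of Kdm5b differed from each other by 1.26-fold, itself past the fold limit. Kdm5a, its paralog, had 3.49 and 4.27 FPKM at 2 h, 4.26 and 3.84 FPKM at 24 h, and 3.56 and 5.11 FPKM at 7 d. The log2 ratios of Kdm5a were 0.29, -0.15 and 0.52, so that it was just under the fold limit at 2 h, lower in cocaine at 24 h and the highest of all at 7 d. The difference of its log2 ratio between 24 h and 7 d, 0.68, was the largest between any of the times among the 34 genes with a ratio at each time, and was not tested. At 7 d 1.29% of genes of like level had a ratio at least as high. The locus of Kdm5a (chr6:120324323-120444951) also spans Ccdc77, and that of Kdm5b (chr1:134560109-134635285) spans Mgat4e. Kdm1a (LSD1), a demethylase of mono- and dimethylated H3K4, was the most abundant eraser. It had 18.0 and 17.2 FPKM at 2 h, 17.3 and 19.2 FPKM at 24 h, and 18.3 and 16.8 FPKM at 7 d. The locus of Kdm1a spans 133 kb, against 52.3 kb for the gene in RefSeq, and also holds Luzp1. Kdm1b was at 1.67 to 1.94 FPKM.

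Erasers of H3K9 methylation were led by Kdm7a, which also acts on H3K27. Kdm7a (chr6:39118408-39206789) had 3.59 FPKM in saline and 4.96 FPKM in cocaine at 2 h, 3.67 and 3.83 FPKM at 24 h, and 2.96 and 3.67 FPKM at 7 d. The ratio was past the fold limit at 2 h (0.47 in log2) and just under it at 7 d (0.31). Its 7 d saline value was the lowest of the 3 saline values. Kdm3a, a demethylase of mono- and dimethylated H3K9, had 5.29 and 6.46 FPKM at 2 h and 4.88 and 5.99 FPKM at 24 h, log2 ratios of 0.29 and 0.30 (the highest at 24 h), and 4.65 and 4.96 FPKM at 7 d. Kdm4b, the most abundant of the Kdm4 trimethyl demethylases, had 10.8 and 11.8 FPKM at 2 h, 10.4 and 12.3 FPKM at 24 h, and 8.88 and 9.83 FPKM at 7 d. Kdm4a was higher in cocaine at each time with log2 ratios from 0.091 to 0.14. Kdm4c was near 0 at 2 h and below it later, and Kdm4d was at 0.343 to 0.654 FPKM, too low to count.

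Erasers of H3K36 methylation included Kdm2a, a CpG-binding dimethyl demethylase. Kdm2a (chr19:4314419-4398285) had 7.18 FPKM in saline and 9.55 FPKM in cocaine at 2 h, 7.33 and 8.86 FPKM at 24 h, and 6.15 and 7.06 FPKM at 7 d. Its log2 ratios of 0.41, 0.27 and 0.20 were ordered as those of Setd1b. The locus also spans 9430078G10Rik. Kdm2b, its paralog, had 3.97 and 4.48 FPKM at 2 h and 4.04 and 4.78 FPKM at 24 h. At 7 d the Kdm2b row had the status FAIL, so no ratio was taken, with 3.91 FPKM in saline and 3.69 FPKM in cocaine. Kdm8, named as an H3K36 demethylase and also known as an arginine hydroxylase, had 0.856 and 0.834 FPKM at 2 h, 1.11 and 0.894 FPKM at 24 h, and 0.869 and 1.15 FPKM at 7 d. The 7 d ratio (0.40 in log2) followed a ratio of -0.31 at 24 h, just inside the fold limit, and the mean FPKM was close to the minimum of 1 in both tables. With a pseudocount of 1 the 7 d value was 0.20.

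Kdm6b, an eraser of H3K27 methylation, had 1.21 FPKM in saline and 2.45 FPKM in cocaine at 2 h in a row with the status FAIL, for which no ratio is given. At 24 h it had 1.52 and 1.79 FPKM and at 7 d 0.927 and 1.1 FPKM, log2 ratios of 0.23 and 0.25. The 2 h cocaine value was the highest of the 6. Kdm6bos, the antisense gene, is listed at the same locus (chr11:69398508-69416040) with 0 to 0.125 FPKM, and the library kit does not mark strand. The plot of pooled FPKM shows Kdm6b beside the 8 genes past the fold limit.

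**Figure D2:**
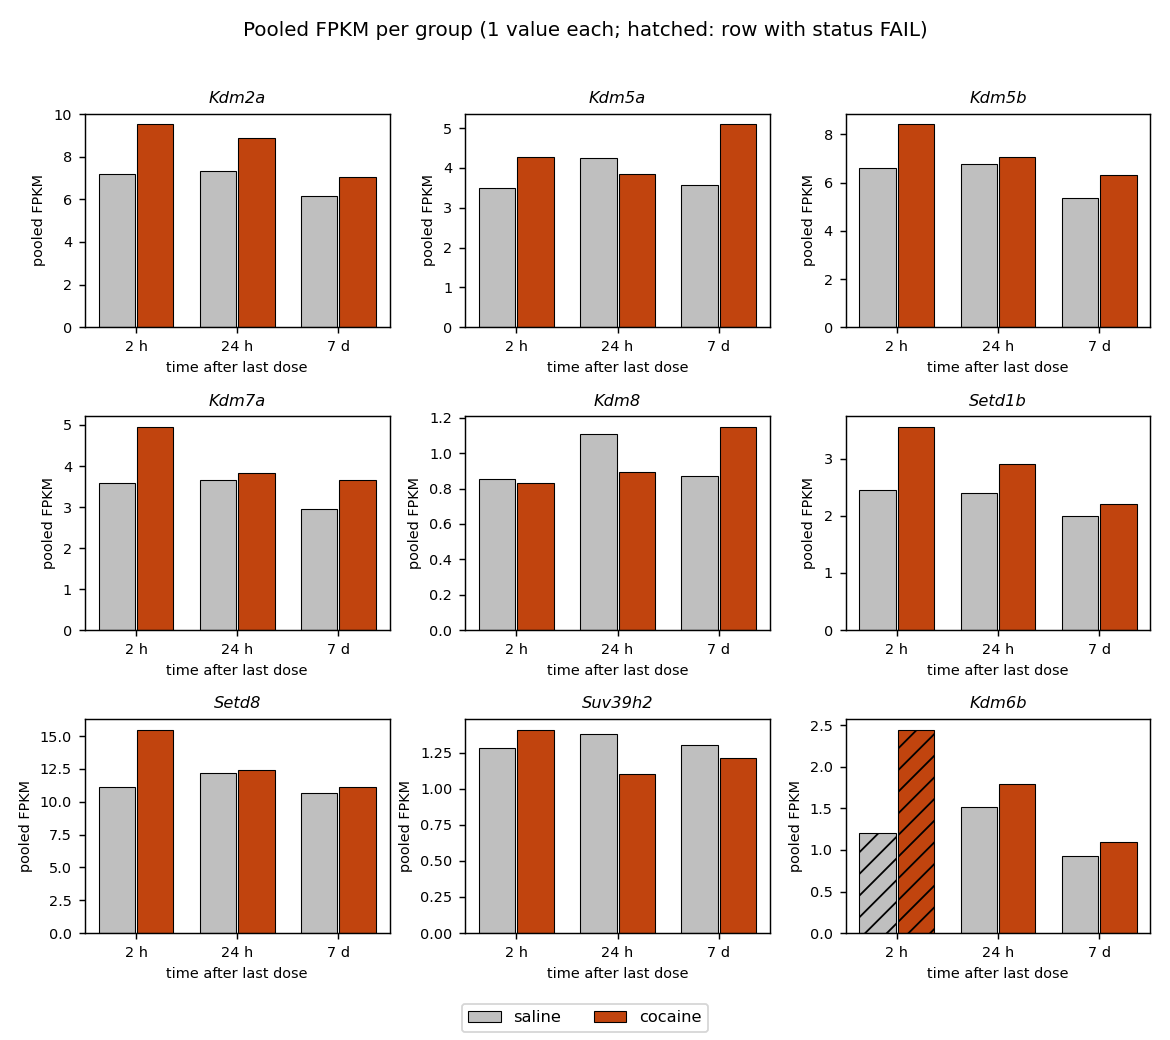
Pooled FPKM (vertical axis from 0, own scale per gene) in saline (grey) and cocaine (orange) at 2 h, 24 h and 7 d for the 8 genes past the fold limit at any time and for Kdm6b, with 1 value per bar and no error; hatching marks the Kdm6b row with the status FAIL. Setd1b, Setd8, Kdm7a, Kdm2a and Kdm5b have their tallest bar in cocaine at 2 h, and Kdm5a and Kdm8 in cocaine at 7 d.

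By kind of enzyme, 3 of 12 demethylase genes and 2 of 23 methyltransferase and other SET genes were past the fold limit upward at 2 h, which is 25% and 8.7% beside 7.2% of all genes, and their median log2 ratios were 0.15 and 0.10. At 7 d these medians were 0.20 over 13 genes and 0.08 over 24 genes. At 24 h they were 0.10 and 0.062. Whether the kinds differ was not tested.

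Of 34 genes with a ratio at each time, 17 (50%) were higher in cocaine at all 3 times by any amount, against 18.9% of 12535 genes. They were Setd1b, Kmt2a, Kmt2b, Kmt2c and Kmt2e of the H3K4 writers, Ehmt2 and Setdb1 of the H3K9 writers, Ezh1, Nsd1, Setd5, Setd8, and Kdm2a, Kdm3a, Kdm4a, Kdm4b, Kdm5b and Kdm7a of the erasers. Of the 34, Setd3 alone (2.94%) was lower at all 3 times, against 14.6% of all genes. In the genes of the middle range of transcript length of the histone lysine methylation genes, 30.8% of 2636 were higher and 6.64% lower at all 3 times. After the length-bin median described next was subtracted, 13 of the 34 (38.2%) were higher at all 3 times, against 16.6% of all genes, and Ehmt2, Kmt2a, Kmt2b and Kmt2c were no longer among them. With that subtraction 3 were lower (8.82% against 16.6%), as Kdm4c and Whsc1l1 joined Setd3.

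Transcript length moved with these ratios. The median transcript of the counted genes at 2 h was 5259 bases long, that of all genes 3046 bases. In the 20 bins of transcript length the median log2 ratio of all genes ran from -0.23 in the shortest bin to 0.14 in the longest at 7 d, while at 2 h the shortest bin had 0.007 and the longest 0.085, and at 24 h -0.027 and 0.036. After the median of its length bin was subtracted from each gene, the median of the histone lysine methylation genes became 0.056 (2 h), 0.044 (24 h) and 0.031 (7 d). Counts past the fold limit upward were then 4, 0 and 2, where 5.43%, 2.58% and 3.85% of all genes were. Among the genes described above, the 7 d log2 ratio became 0.025 for Setd1b, 0.07 for Kdm2a, 0.163 for Kdm7a and 0.146 for Kdm5b. For the 2 genes counted as higher at 7 d it went from 0.524 to 0.378 (Kdm5a) and from 0.403 to 0.435 (Kdm8). The cause of the trend was not tested.

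**Figure D3:**
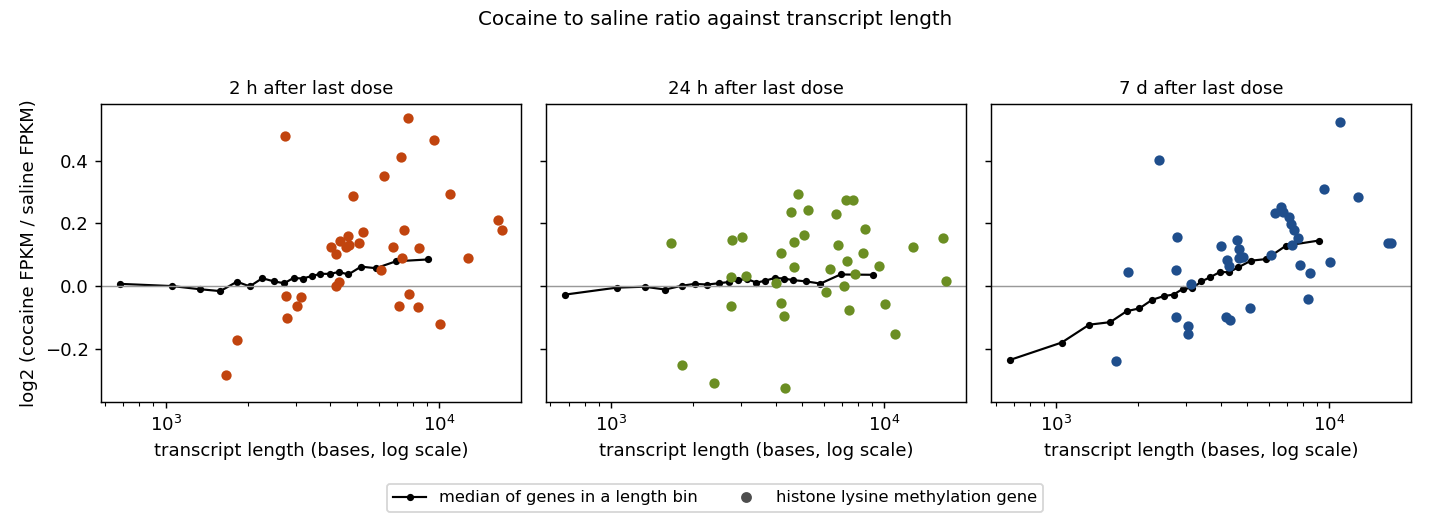
Log2 ratio of pooled cocaine FPKM to pooled saline FPKM (vertical axis) against transcript length in bases (log scale) at 2 h, 24 h and 7 d. Coloured points are the histone lysine methylation genes and the black line joins the medians of all genes in 20 length bins; at 7 d the line runs from -0.23 to 0.14.

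The 3 saline groups did not have equal levels. Their values come from tables normalized separately and are set side by side only as a description. The 7 d saline value was the lowest of the 3 in 28 of the 34 genes (82.4%). It was so in 40.4% of all genes and 66% of genes in the same middle range of length. The median log2 ratio of 7 d saline to 2 h saline was -0.12 in the 34 genes. It was -0.004 over all genes and -0.103 over genes in that range of length. The highest and the lowest saline values were apart by the fold limit or more in 6 of the 34 genes (17.6%) and in 27.5% of all genes. The cocaine value was above all 3 saline values in 20 genes at 2 h (58.8%), 19 at 24 h (55.9%) and 7 at 7 d (20.6%), where 30.4%, 28.8% and 13.5% of all genes and 44.3%, 36.7% and 16.6% of genes in the middle length range were. Kdm5a, Kdm7a, Kmt2c, Setd5, Setd7, Setdb1 and Whsc1 were the 7 at 7 d. Kdm5b, Kdm2a and Setd1b, higher in cocaine than in 7 d saline, were not among them.

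Other genes of the same machinery were counted from lists of their complexes. Of 8 COMPASS subunits 0 were past the fold limit at any time, including Wdr5, Ash2l and Dpy30, which all such complexes share. Of 8 PRC2 subunits Mtf2, which guides the complex to CpG islands, was lower at 2 h (4.67 and 3.72 FPKM). Eed, which reads the mark, was higher at 24 h (3.67 and 4.69 FPKM), and 0 were past the fold limit at 7 d. Jarid2, counted among the 8 and within the fold limit, had 2178 and 1831 FPKM at 24 h. Its values were 4.19 and 4.52 FPKM at 2 h and 3.37 and 3.31 FPKM at 7 d. Whether the 24 h row measures that gene was not tested. Of 9 other lysine methyltransferases Prdm2 was higher at 2 h (6.98 and 8.74 FPKM), Prdm16 was lower at 24 h (1.44 and 1.08 FPKM) and higher at 7 d (1.02 and 1.35 FPKM), and Setmar was lower at 24 h (3.44 and 2.74 FPKM). Of 6 other Jumonji genes Hr, an H3K9 demethylase, was higher at 2 h (3.73 and 4.77 FPKM) and was not past it at 24 h (4.87 and 4.30 FPKM). It is not among the 5 genes of that list counted at 7 d, of which 0 were past it. Of 8 arginine methyltransferases 0 were past it at any time. Over all genes the shares past it were 7.2% upward and 5.21% downward (2 h), 4.02% and 3.48% (24 h), and 5.31% and 7.8% (7 d).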

How the data were processed

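PFC RNA of 12 libraries was sequenced with a polyA kit that does not mark strand. The deposited tables, 1 per time point, hold FPKM values that the authors pooled over the 2 libraries of a group. Per the labels, reads were processed with CASAVA 1.8.2, Trimmomatic 0.32, TopHat2 2.0.12, Cufflinks 2.2.1 and Cuffdiff on GRCm38; the methods of the study name cutadapt and mm9. The protocol label speaks of 6 libraries where 12 samples are listed, and the read length differs between labels and methods. The loci overlapped their own genes in GRCm38 for 40 of 40 names at 2 h, and positions are given on that build, 1-based. Beyond the loci described above, those of other counted genes also span neighbours, such as Srpk2 at Kmt2e, Orai1 at Kdm2b and Cers2 at Setdb1. What such neighbours add to a value was not tested. The tables also hold the authors' fold changes, test statistics, p-values and q-values, which were not used. The first value column was taken as saline and the second as cocaine, as the headings of the supplementary tables have it, since the short column names (a leading C against none) do not say so.

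With 1 pooled value per group no test was run. Log2 ratios were computed in Python 3.11.15 with pandas 2.3.3 and numpy 2.4.6 and plotted with matplotlib 3.10.9. Of several rows with 1 name the longest locus with the status OK was kept, and of equal loci the one with the higher mean FPKM. Genes described with their values in all groups were those past the fold limit (5 to 4) at any time, Kdm6b, and the genes of the highest and lowest mean FPKM in each enzyme class; others were named after their values were seen. The genes and lists were chosen with earlier results of these data known. Each transcript length is that of the longest coding transcript in the NCBIM37 annotation. Counting steps were tested on simulated data.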

Additional observations from a re-analysis of the deposited data

Results flagged for a closer look

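Rows with the status FAIL were kept out of every count, and 2 of them held a cocaine value well above that of saline. Kdm6b had 2.45 FPKM in cocaine and 1.21 FPKM in saline at 2 h, and Kmt2d had 2.09 FPKM in cocaine and 1.32 FPKM in saline at 7 d. Both differences stand in data outside the counts and were not tested. The Kdm2b row with that status at 7 d went the other way, with 3.69 FPKM in cocaine and 3.91 FPKM in saline.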

How the results depend on the processing

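Counts at the fold limit rest on few genes near the limit. With 1.5-fold, 0 genes were higher at 2 h, 0 higher at 7 d and 0 lower at 24 h (2.05%, 1.16% and 1.06% of all genes). With 1.1-fold, 13, 12 and 13 genes were higher at 2 h, 24 h and 7 d (24.6%, 16.9% and 21.4% of all genes) and 2, 4 and 2 lower (16.6%, 14.7% and 25.6%). With a mean FPKM of at least 5, 3 of 21 genes were higher at 2 h and 0 of 19 at 7 d (4.46% and 2.54% of all genes). At that level 0 of 21 were lower at 24 h (1.3% of all genes). Without the level filter 1, 2 and 1 were lower at 2 h, 24 h and 7 d (7.44%, 5.82% and 9.39% of all genes). A pseudocount of 1 left 1 gene higher at 7 d and 0 lower at 24 h (2.93% and 2.42% of all genes). One of 0.1 left 0 lower at 24 h (3.82% of all genes). Subtracting the length-bin median lowered the medians to 0.056 at 2 h and 0.031 at 7 d. The other 66 alternatives of the counts and medians stayed within 1.5 times their values. Lower at all 3 times were 2 genes after centring on the median of all genes and 3 after the length-bin median was subtracted. Of all genes 16.7% and 16.6% were. Both settings were chosen after seeing the data. No median, and no gene past the fold limit at that time, changed sign, but the length-bin median turned the 7 d ratios of Kmt2a (-0.01), Kmt2b (-0.10), Kmt2c (-0.009), Whsc1 (-0.079) and Whsc1l1 (-0.069), and others near 0 at 2 h and 24 h, such as Ehmt2 at 24 h (-0.017). No paired analysis was possible because the values are pooled over the libraries of a group and carry no replicate number, and for the same reason no replicate could be left out. Depth limits are unknown without counts.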
